A study of Mus musculus with 6 samples.

Results

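The genes described here were listed as retinoid dehydrogenases, enzymes that interconvert retinol and retinal or oxidise retinal to retinoic acid. They are Dhrs9, Dhrs3, Rdh7, Rdh10, Rdh11 and Rdh16, and the aldehyde dehydrogenase Aldh1a1 with its close relative Aldh1a7. Cyp26a1, which breaks retinoic acid down and is not a dehydrogenase, was listed with them. All were listed by symbol and chosen by the intensities of Dhrs9 in the knockout and wild type arrays described here, which the other enzymes were set beside. Their differences between the groups are therefore given as a description without a test. Of the 9 genes, 7 had an array row annotated with their symbol alone, and 6 of those were bright enough to enter the fit over 19123 genes. Rdh7 and Rdh16 appeared only on rows that also carry other symbols, and Dhrs3 lay below the brightness filter. The list holds no retinoid-binding protein, and those were examined separately among other retinoid genes.

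Vitamin A circulates as retinol and is stored in the liver as retinyl esters. Short-chain dehydrogenases oxidise retinol to retinal, and some members of the same family run the reaction back. Retinal is then oxidised irreversibly to retinoic acid, a ligand of nuclear receptors, and CYP26 enzymes clear it. The hepatocyte is rich in such enzymes, several of which also act on steroids.

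RNA came from primary hepatocytes in 3 samples labelled SRSF1HKO, a hepatocyte-specific knockout of the splicing factor SRSF1, and 3 labelled WT. All were from C57BL/6 mice aged 3 months, untreated, harvested by perfusing the liver and labelled as cultures, with 1 exon array each. The sources used here do not give the driver of the deletion or the time in culture. The sample titles each hold a different number, but nothing in the labels says that the samples of a group were separate animals. Errors therefore concern these samples only.

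Array medians were 18.6 to 28.8 in the knockout and 25.6 to 39.8 in wild type, and the median gene differed by -0.44 log2 units (knockout minus wild type) on the deposited scale and by -0.01 after quantile normalization. Log2 differences below are therefore quantile-normalized unless the deposited scale is named, on the log2(intensity + 16) scale. Each is given with limma's standard error over 3 against 3 arrays. Limma draws that error towards the spread of genes of like brightness, so it is not the spread of 1 gene alone. On the deposited scale the pull was strong: the gene Xist, at 9.95, 2136 and 2122 in the knockout, had an error of 0.26. A gene is called only where limma's Benjamini-Hochberg adjusted p was under 0.05 on both scales in the same direction. The targeted gene Srsf1 read 242, 371 and 386 in the knockout, against 666, 667 and 607 in wild type, a difference of -0.53 ± 0.18 (adjusted p = 0.185), or -0.95 ± 0.27 on the deposited scale (adjusted p = 0.010). No source used here names the deleted exons, so whether its row lies in the deleted stretch is unknown, and the quantile-normalized fit did not call it. Knockout replicate 1 stood apart: Xist read 9.95 in it and 2122 to 3532 in the other 5 arrays. The Y-linked Eif2s3y read 130 in it and 2.27 to 7.78 in the others. Over all genes tested, Pearson's r on the deposited log2 scale was 0.939 and 0.945 between it and knockout replicates 2 and 3. Knockout replicates 2 and 3 had 0.987 with each other and 0.952 to 0.966 with the wild type arrays. The labels give no sex, and values without that array are given beside the results. Hepatocyte markers were bright in all arrays: albumin (Alb) read 6937 to 10757 in the knockout and 10035 to 11053 in wild type, with a quantile-normalized difference of -0.34 ± 0.05 (adjusted p = 0.0044) that was not called on the deposited scale.

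Dhrs9 carried the difference in this group of genes. Dhrs9 is a short-chain dehydrogenase that oxidises retinol and also 3-alpha-hydroxysteroids. It read 952, 499.5 and 450.2 in knockout replicates 1, 2 and 3, against 60.6, 72.3 and 52.5 in wild type replicates 1, 2 and 3. All knockout arrays were several times above every wild type array, and the wild type arrays lay close together. The knockout mean was 634 ± 276 and the wild type mean 61.8 ± 9.97 (SD, n = 3 each), a ratio of 10.3. No background was subtracted from the deposited values for this ratio. Whether the wild type signal stood above background was not tested. Within the arrays, 98.3% to 99.5% of all rows were dimmer than Dhrs9 in the knockout, and 71.7% to 75.1% in wild type. The log2 difference was 3.46 ± 0.31, and 2.99 ± 0.28 on the deposited scale. Knockout replicate 1 gave the highest value, and without it the difference was 3.11 ± 0.11. Of 19123 genes only 7 had a larger increase, on either scale.

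**Figure D1:**
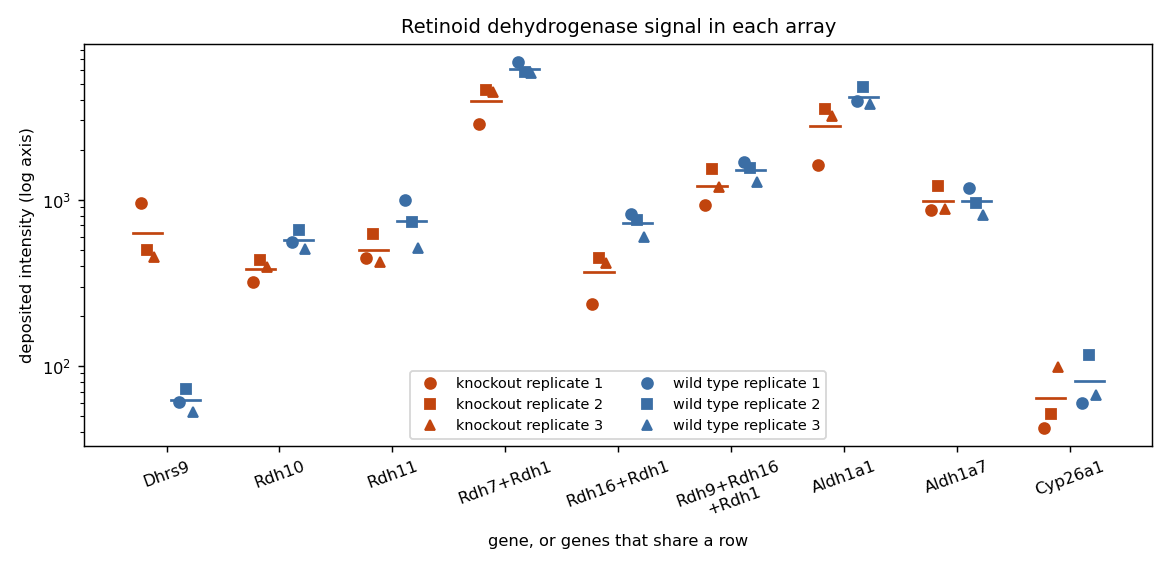
Deposited intensity (log axis) of the retinoid dehydrogenases other than Dhrs3, and of Cyp26a1, in every array, with shared rows under all their symbols. Knockout arrays are on the left of each pair and wild type arrays on the right, with bars for group means. Symbols mark the replicates. Only Dhrs9 has all 3 knockout arrays (450.2 to 952) above all wild type arrays (52.5 to 72.3), and heights of different genes are not comparable because each row has its own probes.

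Among the other enzymes of retinol and retinal, Rdh10 performs the first oxidation step in the embryo. It read 320, 434 and 393 in the knockout, against 559, 661 and 502 in wild type. These groups did not overlap on the deposited scale, but after quantile normalization they did, at -0.12 ± 0.13, and without knockout replicate 1 the difference was -0.06 ± 0.11. A dimmer second row of Rdh10 read 161, 117 and 185 in the knockout, against 229, 227 and 158 in wild type, with a difference of 0.08 ± 0.17. Rdh11, which mainly reduces retinal with NADPH, read 444, 623 and 419 in the knockout, against 1001, 735 and 509 in wild type. Its groups overlapped on both scales, wild type replicate 1 was the highest array, and the difference was -0.08 ± 0.17.

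Dhrs3 reduces retinal back to retinol and is itself switched on by retinoic acid. Its row read 2.89, 0.0049 and 1.26 in the knockout, against 9.28, 7.86 and 0.0068 in wild type. At most 17.2% of the rows of an array were dimmer than Dhrs3. Its signal was thus among the lowest on every array, and no difference is given.

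Rdh7 and Rdh16 are retinol dehydrogenases that also act on androgens. They lie in a run of related genes on chromosome 10 with Rdh1, Rdh9, Rdh19, Rdh16f2 and Hsd17b6. The array does not separate all of these genes, so the rows that hold Rdh7 or Rdh16 are given under all their symbols and assigned to none. The row of Rdh7 and Rdh1 read 2835, 4542 and 4434 in the knockout, against 6715, 5892 and 5799 in wild type, a difference of -0.26 ± 0.09, and of -0.18 ± 0.07 without knockout replicate 1. The row of Rdh16 and Rdh1 read 234, 443 and 418 in the knockout, against 824, 750.2 and 593 in wild type. The difference was -0.57 ± 0.21, or -0.32 ± 0.10 without knockout replicate 1. In both of these rows the knockout lay wholly below wild type on both scales. Of all genes 28% did so on the deposited scale and 10.1% after quantile normalization. The row of Rdh9, Rdh16 and Rdh1 went the other way after quantile normalization. It read 931, 1528 and 1186 in the knockout, against 1680 (1679.8), 1555 and 1274 in wild type, with a difference of 0.20 ± 0.13.

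The single-symbol rows of the same run were not uniform. Hsd17b6, which acts on androgens and retinol, was called lower and is described with the other retinoid genes. The row of Rdh1 alone read 71.6, 76.5 and 80.8 in the knockout, against 147, 173 and 89.1 in wild type (-0.24 ± 0.17, adjusted p = 0.642). Rdh19 read 37.9, 163 and 184 in the knockout, against 259, 268 and 238 in wild type (-0.73 ± 0.49, adjusted p = 0.598). Its low value came from knockout replicate 1, and without that array the difference was -0.01 ± 0.13.

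Aldh1a1 and Aldh1a7 are neighbours on chromosome 19. Aldh1a1 is the main cytosolic enzyme that oxidises retinal to retinoic acid in adult mouse liver, and Aldh1a7 is its close relative. Aldh1a1 read 1609, 3509 and 3205 in the knockout, against 3938, 4794 and 3743 in wild type. Knockout replicate 1 was the lowest by far, and the other knockout arrays lay just below wild type. The difference was -0.65 ± 0.25 on the deposited scale, -0.17 ± 0.17 after quantile normalization and 0.03 ± 0.11 without knockout replicate 1, so its sign turned with that array. Aldh1a7 read 864, 1211 and 878 in the knockout, against 1176, 951 and 810.0 in wild type. Group means were 984 ± 196 and 979 ± 185 (SD, n = 3 each), and the deposited difference was 0.01 ± 0.26. After quantile normalization the knockout arrays all lay above wild type, at 0.51 ± 0.14, and at 0.49 ± 0.13 without knockout replicate 1. Cross-hybridisation between these 2 relatives was not tested.

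On the deposited scale Dhrs9 alone lay wholly above wild type, as 1.69% of all genes did, and Rdh10 and Aldh1a1 lay wholly below it, as 28% of all genes did. After quantile normalization Dhrs9 and Aldh1a7 lay wholly above wild type, as 11.6% of all genes did, and none of the 6 lay wholly below, as 10.1% of all genes did. Since the list was chosen by these values, nothing is read from these counts.

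Cyp26a1 hydroxylates retinoic acid for clearance, and its transcription rises with retinoic acid, which makes it a common readout of retinoid signalling. Its promoter is shown because it holds the type of element through which retinoic acid receptors act. The element is a pair of half-sites, each spelled AGGTCA or, with other bases, as AGTTCA or else as GGGTCA or lastly as GGTTCA, in the same direction with 5 bases between them, and both strands were searched over windows of 300 bases in RefSeq's promoters (GRCm38.p6, 250 bases before to 50 after a start). Windows were found for 8 of the 9 genes, all but Rdh10. Among these 8, Cyp26a1 alone held the repeat, which occurred in 32 of 32851 windows (0.0974%) and in 31 of 27025 genes. The only other gene of the retinoid lists with it was the receptor gene Rarb, and the 2 elements are set side by side with half-sites in capitals.
Cyp26a1 (chr19:37697776-37697792, minus strand, bases 32 to 16 before the start): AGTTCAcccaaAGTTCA
Rarb (chr14:16575513-16575529, minus strand, bases 53 to 37 before the start): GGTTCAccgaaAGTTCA

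The Cyp26a1 window (chr19:37697558-37697857, plus strand) carries the repeat near its end, where it reads as its reverse complement, with half-sites in capitals.
Cyp26a1 promoter: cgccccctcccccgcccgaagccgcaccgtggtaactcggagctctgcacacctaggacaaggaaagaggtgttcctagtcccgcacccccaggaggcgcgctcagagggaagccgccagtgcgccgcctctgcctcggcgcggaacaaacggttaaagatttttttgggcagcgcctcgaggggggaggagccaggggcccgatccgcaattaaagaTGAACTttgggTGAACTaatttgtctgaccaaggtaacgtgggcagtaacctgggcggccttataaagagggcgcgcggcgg

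The Dhrs9 window (chr2:69380212-69380511, plus strand) is shown beside it as the gene with the largest difference. It held 1 single half-site, in capitals 88 bases before the start, and no repeat at a spacing of 0 to 5 bases. A single half-site on either strand occurred in 43.7% of all windows, and 7 of the 8 genes had one in at least 1 window.
Dhrs9 promoter: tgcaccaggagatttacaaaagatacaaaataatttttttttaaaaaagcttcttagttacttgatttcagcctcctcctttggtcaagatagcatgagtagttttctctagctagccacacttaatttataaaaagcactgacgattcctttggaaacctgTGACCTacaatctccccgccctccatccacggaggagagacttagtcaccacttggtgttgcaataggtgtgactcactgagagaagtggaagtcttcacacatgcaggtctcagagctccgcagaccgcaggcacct

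The Cyp26a1 row read 42.3, 51.0 and 98.0 in the knockout, against 59.5, 116 and 66.6 in wild type. The groups were interleaved, with means of 63.7 ± 30.0 and 80.9 ± 31.0 (SD, n = 3 each). The difference was 0.12 ± 0.30 after quantile normalization, -0.30 ± 0.29 on the deposited scale and 0.45 ± 0.21 without knockout replicate 1. The standard errors leave its direction unresolved on either scale.

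**Figure D2:**
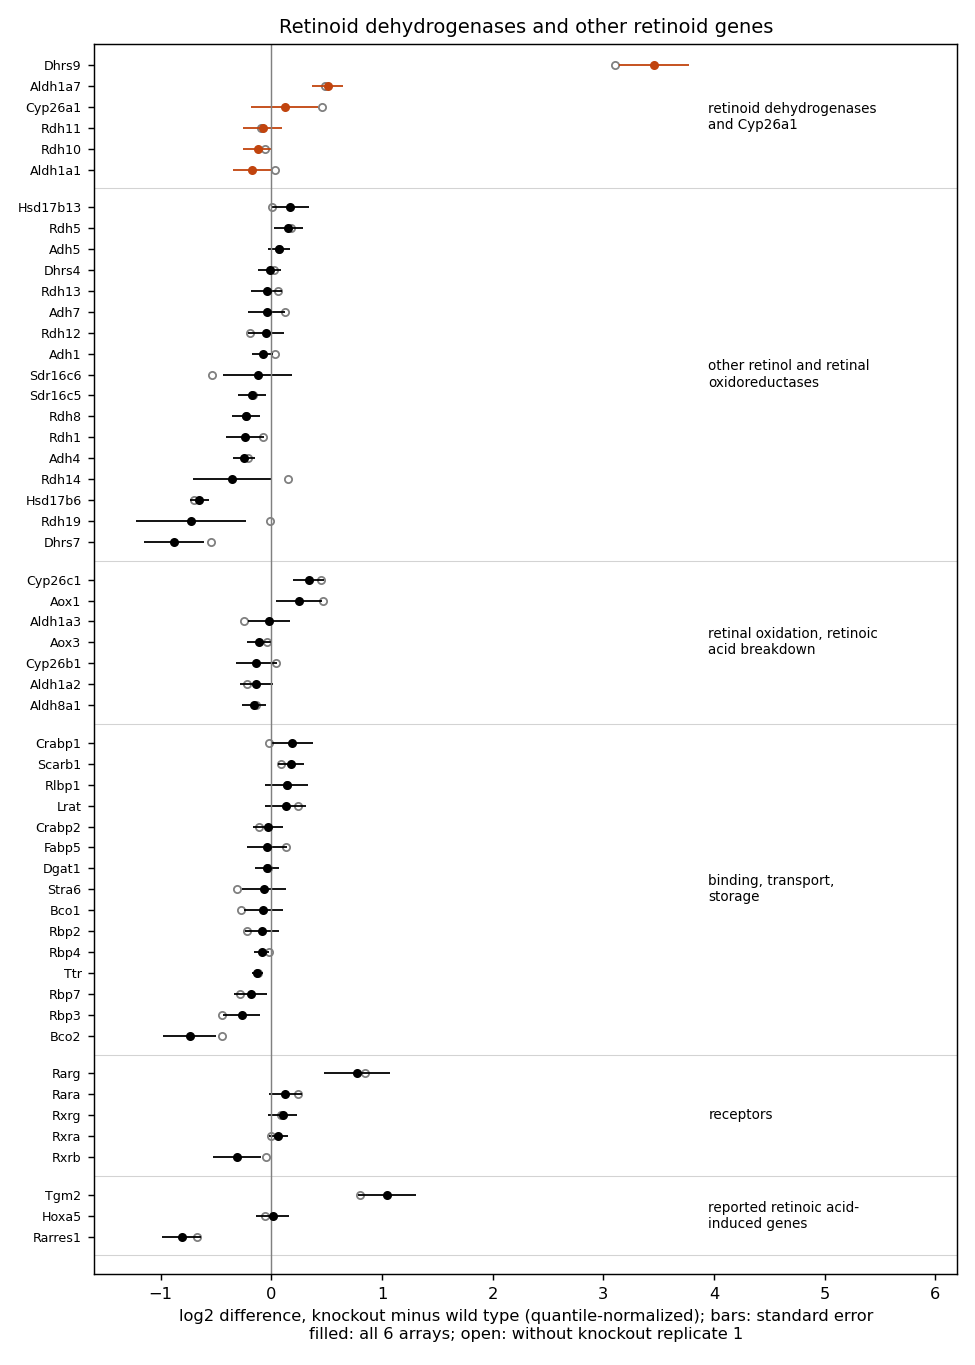
Log2 difference, knockout minus wild type, after quantile normalization with its standard error. Shown are the 6 listed genes that entered the fit, Cyp26a1 among them, and 47 other retinoid genes. Open points mark the fit without knockout replicate 1. Dhrs9 stands at 3.46 while the other 52 genes lie between -0.88 and 1.05.

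The rest of the pathway was examined in 56 further genes, of which 47 were tested. None was called higher, 2 were called lower and 45 were not called by limma. The 2 calls are 4.26% of the 47, where 2.24% of all genes were called, 0.842% higher and 1.4% lower. At an unadjusted p under 0.05, quantile-normalized, 3 were higher and 6 lower. Of all genes 8.94% were higher and 6.4% lower at that threshold, which is the background for each such count below. Their median difference was -0.07, against -0.01 over all genes. Without knockout replicate 1, 5 were lower and none higher, where 6.24% of all genes were called, 1010 of them lower and 183 higher.

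Among 17 other retinol and retinal oxidoreductases, Hsd17b6 fell and 16 were not called. Hsd17b6 read 1558, 2002 and 1709 in the knockout, against 4516, 4007 and 3395 in wild type. Each knockout array was well under the lowest wild type array, and the difference was -0.65 ± 0.09 (adjusted p = 0.0041), or -1.17 on the deposited scale. It passed in each fit that left out 1 array, with the larger adjusted p of the 2 scales at 0.00019 to 0.031. It was not called with median scaling (-0.66 ± 0.37, adjusted p = 0.743). Dhrs7, a dehydrogenase of the same family, read 115, 239 and 196 in the knockout, against 470 (469.8), 535 and 350.4 in wild type. Its difference of -0.88 ± 0.27 missed the threshold (adjusted p = 0.123). With knockout replicate 1 left out, Dhrs7 was called at -0.55 ± 0.11 (adjusted p = 0.0071). The alcohol dehydrogenase Adh4, which oxidises retinol, had -0.25 ± 0.10 (adjusted p = 0.260), and Rdh8 had -0.23 ± 0.12 (adjusted p = 0.457).

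None of 7 other genes of retinal oxidation and retinoic acid breakdown was called by limma, and at an unadjusted p under 0.05 there was 1 higher and 0 lower. Cyp26c1, of the same clearing family as Cyp26a1, had 0.34 ± 0.14 (adjusted p = 0.298). The retinal-oxidising Aldh8a1 had -0.16 ± 0.11 (adjusted p = 0.601), and the aldehyde oxidase Aox1 had 0.25 ± 0.21 (adjusted p = 0.697).

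Of 15 measured genes for retinoid binding, uptake, transport and storage none was called, with 0 higher and 2 lower at an unadjusted p under 0.05 in limma. Bco2, a carotenoid-cleaving enzyme, read 135, 255 and 218 in the knockout, against 492, 503 and 359 in wild type. Its groups did not overlap, and the difference was -0.74 ± 0.24 (adjusted p = 0.151), which was called without knockout replicate 1 at -0.44 ± 0.10 (adjusted p = 0.014). Transthyretin (Ttr), which carries the retinol-binding protein in plasma, had -0.12 ± 0.05 (adjusted p = 0.248). Rbp3, an eye retinoid-binding protein, read 113, 53.5 and 55.3 in the knockout, against 132, 147 and 102 in wild type. Its groups overlapped on both scales. It had -0.27 ± 0.17 (adjusted p = 0.545) and was called lower without knockout replicate 1 at -0.45 ± 0.12 (adjusted p = 0.026). Whether its signal stood above background was not tested.

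Of 5 measured retinoid receptors none was called, with 1 higher and 0 lower at an unadjusted p under 0.05 in limma. Rarg, one of the retinoic acid receptors, read 79.3, 65.4 and 70.4 in the knockout, against 75.1, 92.9 and 16.9 in wild type. Wild type replicate 3 was far below the other arrays, and the difference was 0.77 ± 0.30 (adjusted p = 0.235). Rxrb had -0.31 ± 0.21 (adjusted p = 0.608) and Rara 0.13 ± 0.15 (adjusted p = 0.813).

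Of 7 measured genes reported to be induced by retinoic acid, some of which are also in the lists above, 1 fell and none was called higher. Rarres1, named for its response to retinoids in human skin cells, read 139, 172 and 167 in the knockout, against 387, 503 and 316 in wild type. All knockout arrays lay below all wild type arrays, and the difference was -0.81 ± 0.17 (adjusted p = 0.034). That call was lost when knockout replicate 2 or 3 or any 1 wild type array was left out (adjusted p = 0.055 to 0.173, the larger of the 2 scales) and held without knockout replicate 1 (0.0050). It was also lost with median scaling (-0.75 ± 0.24, adjusted p = 0.254). Tgm2, a transglutaminase, went the other way without passing. It read 679, 512 and 426 in the knockout, against 411, 304 and 361 in wild type, a difference of 1.05 ± 0.26 (adjusted p = 0.063). Cyp26b1, also in the list of retinoic acid breakdown, had -0.13 ± 0.19 (adjusted p = 0.853), and Lrat had 0.13 ± 0.19 (adjusted p = 0.861). The homeobox gene Hoxa5 had 0.01 ± 0.15 (adjusted p = 0.990).

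The genes beside Dhrs9 on its chromosome were examined after its values were seen. The 4 protein-coding genes on either side of it on chromosome 2 (gene order of GRCm38.p6) were all tested. None of the 8 was called by limma, and 0 passed an unadjusted p under 0.05, where 2.24% of all genes were called and 8.94% were higher and 6.4% lower at the unadjusted threshold. The adjacent bile salt export pump gene Abcb11 read 1515, 2117 and 2028 in the knockout, against 3420 (3420.0), 3017 and 2598 in wild type. Its difference was -0.13 ± 0.08 (adjusted p = 0.520). Lrp2, the endocytic receptor on the other side, had -0.22 ± 0.20 (adjusted p = 0.740). With knockout replicate 1 left out, Lrp2 was called lower at -0.47 ± 0.12 (adjusted p = 0.020). The 8 differences lay between -0.37 and 0.37.

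**Figure D3:**
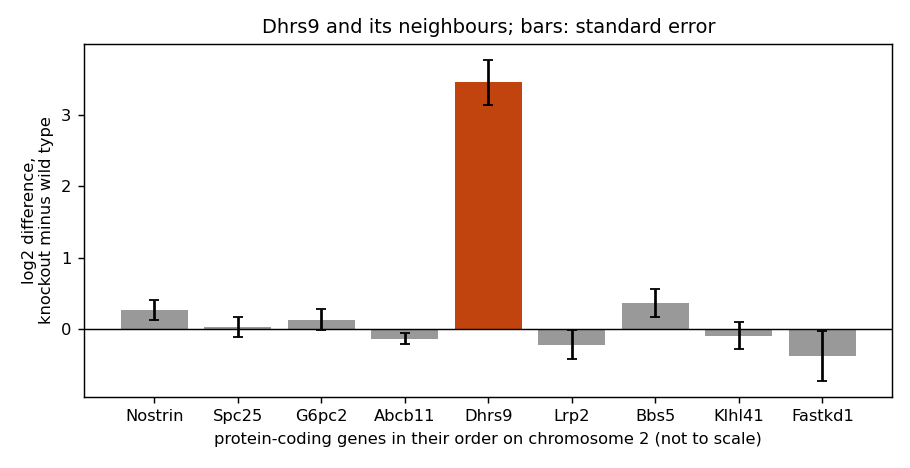
Log2 difference, knockout minus wild type, after quantile normalization with its standard error for Dhrs9 and the 4 protein-coding genes on each side, in chromosome order and not to scale. Dhrs9 stands at 3.46 and its 8 neighbours lie between -0.37 and 0.37.

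The 5 genes whose pattern was most like that of Dhrs9, by Pearson's r of quantile-normalized log2 values over the 6 arrays, were Ddr1 (0.9996), Lcn2 (0.998), Tubb6 (0.998), Aldh1b1 (0.996) and Hint1 (0.996). These arrays fall into 2 groups that set Dhrs9 apart, so such an r describes these 6 arrays only, and no test is given for genes chosen this way. The collagen receptor Ddr1 read 322, 181 and 167 in the knockout, against 40.9, 45.6 and 35.0 in wild type (2.49 ± 0.23). Lcn2, a secreted carrier of siderophores, read 4585, 3711 and 2905 in the knockout, against 1402, 1347 and 1104 in wild type (1.98 ± 0.21). In both, as in Dhrs9, knockout replicate 1 was the highest array. The mitochondrial aldehyde dehydrogenase Aldh1b1 read 894, 879 and 819 in the knockout, against 591, 611 and 392 in wild type (1.20 ± 0.14). Hint1 differed by 0.51 ± 0.09 after quantile normalization and by -0.02 on the deposited scale, so its likeness rests on the normalization. Among the dehydrogenases themselves Aldh1a7 had the highest r with Dhrs9 (0.865) and Rdh10 the lowest (-0.576), over the same 6 arrays. The difference of Aldh1a7 was 0.01 ± 0.26 on the deposited scale, where its groups overlapped, so its likeness rests on the normalization too.

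Other cell types of the liver can carry retinoid genes, stellate cells above all, and in bulk RNA fewer cells of a type and less RNA per cell cannot be told apart. Of 14 measured macrophage markers, Cybb, Gpnmb and Cd68 were called higher, and at an unadjusted p under 0.05 there were 8 higher and 0 lower, where 8.94% of all genes were higher and 6.4% lower. The list median was 0.51, and 0.07 on the deposited scale. The summed quantile-normalized intensity was 2536 to 3238 in the knockout and 928 to 1369 in wild type. The deposited sums were 2095 to 2704 in the knockout and 883 to 1954 in wild type. Both sums include Cybb, Gpnmb and Cd68, which rose most, so the sums do not stand for the rest of the list. On the deposited scale the groups overlapped for Adgre1, Clec4f and Csf1r, and did not for Ptprc. No marker of that list was at 0 in any array, and 13 of the 14 differences were above 0. The defining members Adgre1, Clec4f and Csf1r were not called, nor were the leukocyte marker Ptprc (0.71 ± 0.15, adjusted p = 0.030, deposited 0.344), Cd5l (0.73 ± 0.17, adjusted p = 0.052) and Timd4 (0.52 ± 0.14, adjusted p = 0.076). Adgre1 had 0.50 ± 0.20, the Kupffer cell lectin Clec4f 0.13 ± 0.13 and Csf1r 0.03 ± 0.18 (adjusted p = 0.263, 0.783 and 0.971). Cybb, a subunit of the phagocyte oxidase, read 794, 820 (819.7) and 482 in the knockout, against 78.0, 64.1 and 40.8 in wild type. Of 15 stellate cell markers none was called, with 5 higher and 0 lower at an unadjusted p under 0.05 in limma. Their median was 0.29 and their summed quantile-normalized intensity 3495 to 4369 in the knockout and 2603 to 3101 in wild type. On the deposited scale the median was -0.14 and the sums overlapped, at 2928 to 3712 in the knockout and 2463 to 3962 in wild type. Lrat, the enzyme that esterifies retinol for storage in those cells, read 92.0, 68.6 and 114 in the knockout, against 142, 136 and 80.05 in wild type (0.13 ± 0.19, adjusted p = 0.861). Of the 15 stellate cell differences 13 were above 0 and 2 below. Rgs5 had 0.86 ± 0.18 (adjusted p = 0.029, deposited 0.256). Dcn had 0.95 ± 0.27 (adjusted p = 0.097) and was called higher without knockout replicate 1, at 1.30 ± 0.15. Among markers of hepatocytes (11), endothelial cells (11) and bile duct cells (5) limma called none, with medians of -0.02, -0.12 and 0.01, and at an unadjusted p under 0.05 there were 1, 0 and 1 higher and 3, 1 and 0 lower. The part of these lists in the Dhrs9 difference was not tested.

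**Figure D4:**
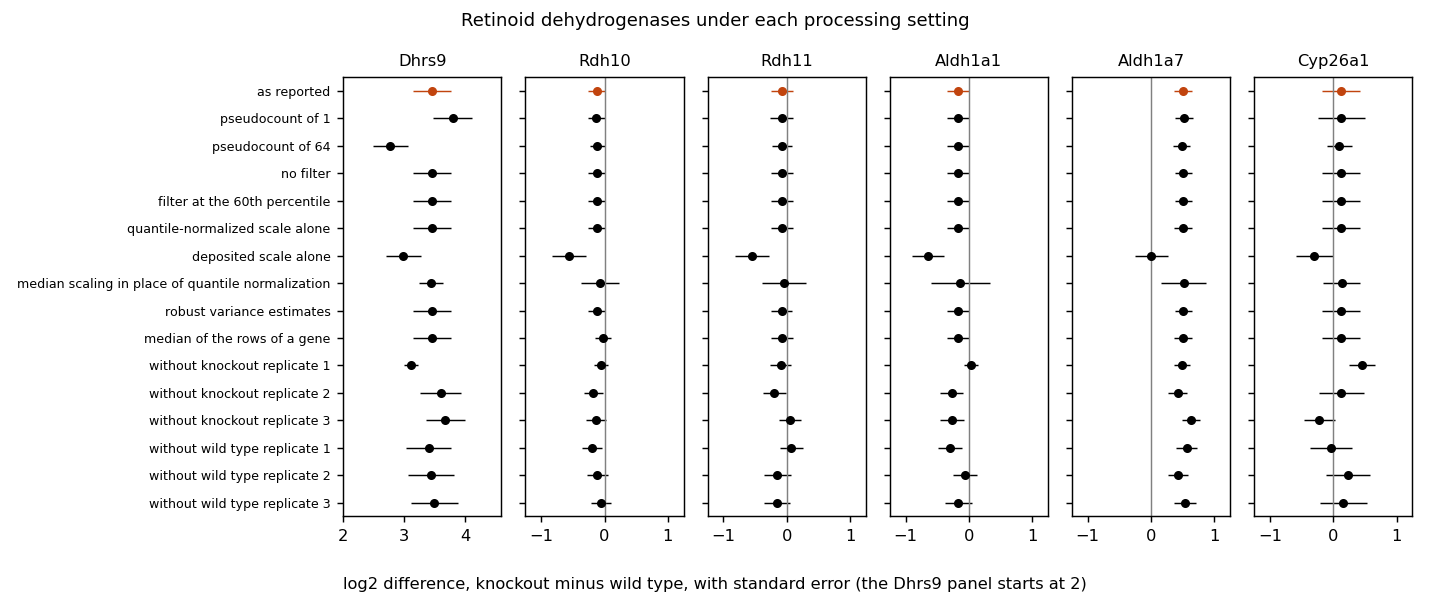
Log2 difference, knockout minus wild type, with its standard error under every processing setting, with the reported setting on top. Shown are the retinoid dehydrogenases that entered the fit and Cyp26a1. The Dhrs9 axis starts at 2. Dhrs9 stays between 2.78 and 3.80, while the deposited scale moves Rdh10, Rdh11 and Aldh1a1 to between -0.55 and -0.65.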

How the data were processed

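The members and gene lists were chosen with earlier results of these data known. Each deposited intensity is a linear value per probe set, summarised by the authors with PLIER on mm9 according to the submitters' processing notes. No source used here states a PLIER version or how arrays were scaled to each other. Of 238609 rows, 26140 had a platform annotation and 24343 of them 1 symbol, and rows with several symbols were assigned to no gene. Values were taken as log2(intensity + 16), rows whose mean fell under the 40th percentile (5.18) were dropped, and the brightest row stood for a gene. In R 4.3.3, limma 3.58.1 (trended eBayes, without covariates) compared knockout with wild type after quantile normalization and on the deposited scale, with Benjamini-Hochberg adjustment over 19123 genes. In all 428 genes were called on both scales. The fit was checked on simulated arrays with independent noise. These held no array that stood apart and no shift in array scale, and the call on both scales was not checked. Genes named were all members, Srsf1, and called genes of the retinoid lists with up to 3 uncalled ones by p per list. The 5 genes most like Dhrs9 and called or defining cell markers were named too. Chosen later were neighbours of Dhrs9 and of the chromosome 10 run. Hoxa5, Rgs5 and Dcn were named outside these rules. The number of arrays limits the precision. Tried alternatives were pseudocounts of 1 and 64, other filters, each scale alone, median scaling, robust variances, the median row of a gene and leaving out each array. Promoter sequences are RefSeq's, build GRCm38.p6, and were searched by exact match.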

Additional observations from a re-analysis of the deposited data

How the results depend on the processing

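The Dhrs9 difference was 2.78 with a pseudocount of 64, which shrinks low values by construction, and 3.11 to 3.68 when 1 array was left out. Counts over all genes moved more: 428 became 792 on the quantile-normalized scale alone (522 higher, 270 lower), 1489 on the deposited scale alone (178 higher, 1311 lower) and 194 with median scaling. Leaving out 1 array gave 168 to 1193 (1193 without knockout replicate 1, 247 without knockout replicate 2, and 168, 196 and 243 without wild type replicates 1, 2 and 3). The count of other retinoid genes called, 2 as reported, was 6 on the deposited scale alone and 0 with median scaling (3 at an unadjusted p under 0.05 in limma), and 1 to 5 when 1 array was left out. The causes were not tested. On the deposited scale alone, where the median gene is -0.44, the differences of Rdh10, Rdh11, Aldh1a1 and Aldh1a7 moved by more than 1 SD. The uncalled differences of Rdh11, Aldh1a1 and Cyp26a1 changed sign in 2, 1 and 3 of the 15 alternatives tried. The replicate numbers used here follow the order of the samples within each group. No paired analysis was possible because the labels themselves give the groups no shared replicate numbers.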
